A study of Mus musculus with 6 samples.

Results

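The genes described here are regulators and matrix products of the periotic mesenchyme, the loose tissue that surrounds the embryonic inner ear, and of the cartilage capsule that this tissue later forms. They are 37 genes named in advance, and their members on the array are all probe sets that the platform annotation assigns to 1 of these symbols alone. That gave 65 of the 45037 probe sets that were not controls. They read 35 of the 18193 genes named on the array, 16 of them through more than 1 probe set. Runx2 and Fbn1 had no such probe set in the annotation used and were not analysed here. The RNA was from mouse otic vesicles, the epithelial sacs from which the inner ear arises, microdissected at embryonic day 11.5. There were 3 Mest-KO pools and 3 controls. Mest-KO embryos were T-Cre conditional Tbx1 knockouts, and the controls were T-Cre conditional Tbx1 heterozygotes, so the labels give both groups T-Cre and a conditional Tbx1 allele. T-Cre is a recombinase driven by regulatory sequences of the mesodermal gene T, and it acts in early mesoderm rather than in the otic epithelium. Each pool held the left and right ears of 3 embryos of the same genotype and was hybridised to 1 array. Dispase had been applied for 30 min at 37 °C to strip the periotic tissue off, so the genes below were read in a preparation from which their main tissue was meant to be removed.

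Periotic mesenchyme is made by cranial mesoderm and neural crest cells and exchanges signals with the vesicle that it encloses. Its cells carry mesenchymal transcription factors such as Prrx1, Twist1, Foxc1 and Pou3f4 and receptors for platelet-derived growth factor. They condense around the vesicle, turn on the cartilage regulators Sox9, Sox5 and Sox6 and then lay down cartilage matrix. Sox9 is also made by the otic epithelium itself.

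Start regions are shown for 4 of the mesenchymal members with high and low values on the same pools, or nearly so, as described below. Each sequence holds the 250 bases before the RefSeq transcript start, 5′ to 3′ on the gene's strand, in build GRCm38.p6. Capitals mark matches to CANNTG, the E-box read by basic helix-loop-helix factors such as the Twist proteins, and to TATAAA, the TATA box, each on either strand.
Twist1 (chr12:33957421-33957670, plus strand): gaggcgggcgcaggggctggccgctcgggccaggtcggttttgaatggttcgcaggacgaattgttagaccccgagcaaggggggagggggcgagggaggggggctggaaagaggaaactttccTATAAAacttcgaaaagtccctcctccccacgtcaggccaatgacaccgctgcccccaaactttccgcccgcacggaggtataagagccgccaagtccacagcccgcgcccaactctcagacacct
Foxd1 (chr13:98353995-98354244, plus strand): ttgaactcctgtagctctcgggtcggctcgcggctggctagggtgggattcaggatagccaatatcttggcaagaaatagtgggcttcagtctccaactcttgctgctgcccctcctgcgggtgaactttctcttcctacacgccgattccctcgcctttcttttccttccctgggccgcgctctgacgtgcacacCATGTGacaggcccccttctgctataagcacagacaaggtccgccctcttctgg
Pdgfra (chr5:75152001-75152250, plus strand): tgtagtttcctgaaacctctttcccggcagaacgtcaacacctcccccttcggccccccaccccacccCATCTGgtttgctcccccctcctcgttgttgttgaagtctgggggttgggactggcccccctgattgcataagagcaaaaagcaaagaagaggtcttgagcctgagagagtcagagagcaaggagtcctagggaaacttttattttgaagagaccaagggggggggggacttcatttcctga
Postn (chr3:54360857-54361106, plus strand, 1 of 2 starts): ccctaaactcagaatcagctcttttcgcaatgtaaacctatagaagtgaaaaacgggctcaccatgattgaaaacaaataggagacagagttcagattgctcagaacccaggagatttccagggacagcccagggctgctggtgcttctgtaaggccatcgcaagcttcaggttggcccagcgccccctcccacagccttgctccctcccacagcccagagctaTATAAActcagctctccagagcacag
Foxd1 and Pdgfra each held 1 match to CANNTG, at -54 and -182 from the start. Twist1 and Postn each held 1 match to TATAAA, at -126 and -26. Prrx1, Twist2, Foxc1 and Pou3f4 also had their high and low values on the same pools, and their windows held no match to either word. The other start of Postn held none either. The RefSeq table had start regions for 22 of the 37 members, 29 windows in all. A CANNTG was present in 16 of the 29 member windows (55.2%) and in 66.2% of the 32841 windows of all genes. Windows of the same gene were counted separately, and Sox6 gave several of the member windows, each with a CANNTG. The longer CAGGTG was in 3 of the member windows (10.3%, against 17.2%), and TATAAA in 4 (13.8%, against 12.4%). The forkhead word GTAAACA and the octamer ATGCAAAT, bound by POU factors, were in 0 member windows, against 3.17% and 1.6% of all. A match is a description of the letters only.

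All arrays had been scaled to the same trimmed mean, and with 3 arrays a group the precision is limited by their number. Tbx1 was read by 1 probe set at intensities of 910, 704 and 713 in Mest-KO and 898, 690 and 766 in control, a log2 difference of -0.03 (SE 0.165, exact two-sided permutation p = 1, where 0.1 is the smallest possible with 3 against 3). The deletion was aimed at mesoderm, and where this probe set lies with respect to the deleted exons is not stated in the labels, so the value does not check them. Genes of the vesicle were read: Oc90, a vesicle matrix protein gene, had intensities from 11000 to 12449. Of 16 fixed genes of the otic epithelium, Oc90 among them, 15 were measured and all of these passed the filter. So did 12462 of all 18193 genes, so that passing alone is weak support for the label. The mean log2 level of these 15 genes ran only from 11.77 to 11.86 over the 6 arrays. Mest-KO 3 was the array with the highest median intensity (91.0, against 62.1 to 71.0 on the others). The labels call the pools biological replicates and do not say whether they came from separate litters, and a test measures the spread between these pools.

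The mesenchymal members varied widely between pools of the same genotype, and no member passed the test between the genotypes. Of the 35 genes read, 24 passed a filter at the 40th percentile of all probe sets, an intensity of 34.4, and 11 did not. By limma 0 of the 24 were called (Benjamini-Hochberg adjusted p under 0.05, over 12462 genes), in which 0 genes in all were called (0%). At an unadjusted p under 0.05 there were 2 of the 24 (8.33%), against 641 of all genes (5.14%). They were Snai2, higher in Mest-KO as were 2.23% of all genes at that p, and Lum, lower as were 2.91%. With a variance prior that follows expression level, 3 of the 24 had such a p, against 6.1% of all genes, and again 0 were called after adjustment, against 13 of all genes (0.104%). In Mest-KO 14 members were higher (58.3%, against 49.1% of all genes) and 10 lower. Their median log2 difference was 0.07, against a median of -0.00333 over all genes. With median centring 10 were higher and 14 lower, with a median of -0.079. The median was 0.42 without Mest-KO 1, and -0.13, -0.0064 and -0.16 without Mest-KO 2, Mest-KO 3 and control 3. The groups did not overlap for 2 of the 24 members, against 10.6% of all genes. One of these was Snai2, above the controls like 4.74% of all genes, and the other Lum, below them like 5.85%.

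**Figure D1:**
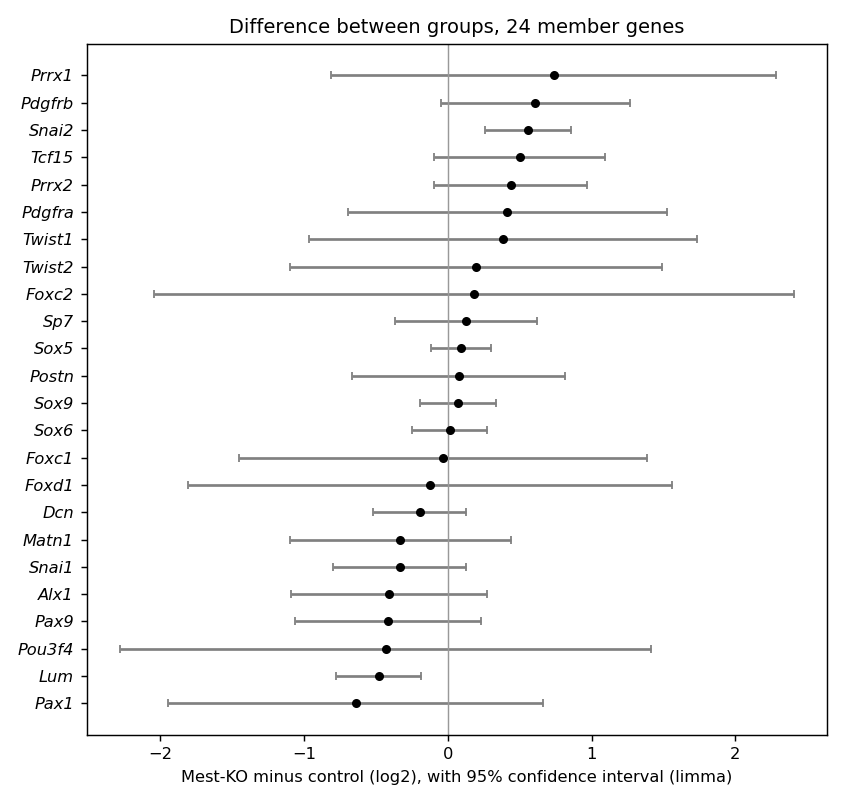
Difference between Mest-KO and control (log2, points) for the 24 member genes above the filter, with 95% confidence intervals of the limma fit (bars). The intervals of Snai2 and Lum lie to 1 side of 0, unadjusted, and those of Foxc2, Pou3f4, Foxd1 and Prrx1 span more than 3 log2 units.

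The spread within a group, pooled over both groups, had a median of 0.412 (SD, log2) over the 24 members and of 0.153 over all genes tested. Dim genes vary more on any array, so the members were also set against genes of their own level. Of the 24 members, 10 (41.7%) had an SD above the 90th percentile of the genes in their level class (all genes split by mean level into 10 equal classes), where 10% of all genes lie by construction. These were Pou3f4, Prrx1, Twist1, Twist2, Foxc1, Foxc2, Foxd1, Pdgfra, Pdgfrb and Postn. Sox5, Sox6, Sox9, Snai2, Lum and Dcn, each read from its brightest probe set, all stayed under it. In 22 of the 24 members the range within a group exceeded the difference between the group means, which was also so for 95% of all genes.

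**Figure D2:**
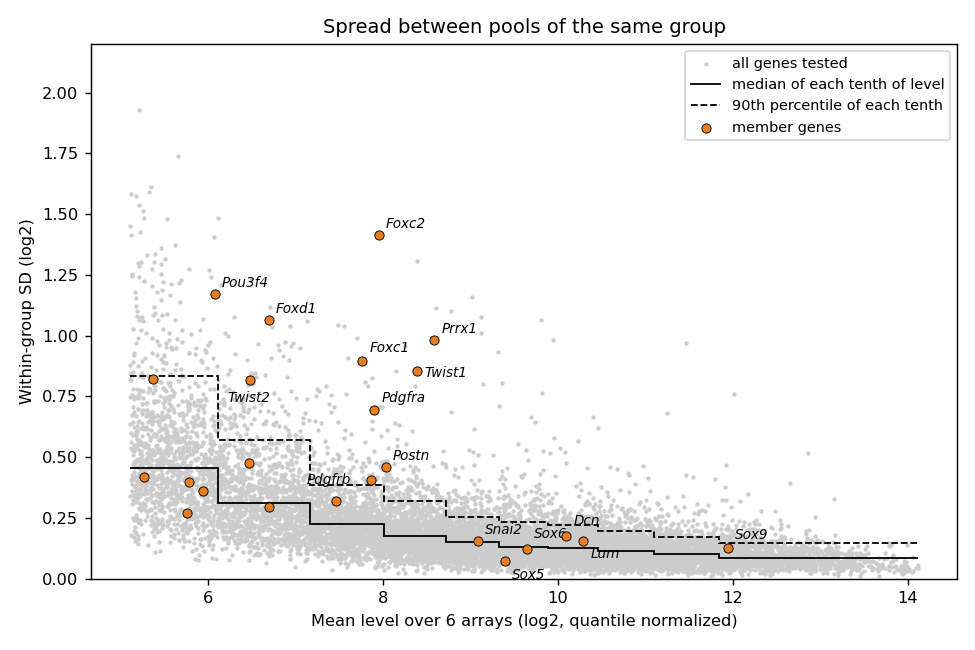
Within-group SD (log2, vertical) against mean level over the 6 arrays (log2, horizontal) for all 12462 genes tested (grey) and the 24 members (orange), with the median (line) and 90th percentile (dashed) in each level class. Foxc2, Prrx1 and Twist1 stand well above the dashed line, and Sox5, Sox6 and Sox9 lie among the other genes of their level.

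The same pools were high or low from gene to gene. The highest of the 6 normalized values was on Mest-KO 2 for 13 of the 24 members (54.2%) and for 21.7% of all genes. The lowest was on Mest-KO 1 or control 3 for 15 of the 24 (62.5%), against 32.4% of all genes. Of the other arrays, control 1 held the highest value of 4 members, control 2 of 3, Mest-KO 3 of 2, and Mest-KO 1 and control 3 of 1 each. The low pools thus came from both genotypes. In bulk RNA of this kind, fewer cells of a type and less RNA per cell cannot be told apart.

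Among transcription factors of head and periotic mesenchyme, 9 of 10 passed the filter, 5 higher and 4 lower in Mest-KO. Foxc2, a forkhead factor gene of mesoderm and its vessels, had intensities of 94.9, 967 and 206 in Mest-KO 1 to 3 and of 321, 378 and 100 in control 1 to 3. Mest-KO 2 was 10.2-fold above Mest-KO 1, the control pools differed by up to 3.77-fold, and the groups overlapped throughout. The log2 difference of the groups was 0.18 (SE 0.921, 95% confidence interval -2.04 to 2.41). Its relative Foxc1, needed in head and eye mesenchyme, stood at 100.3, 415 and 240 in Mest-KO and at 286, 297 and 119 in control. Mest-KO 2 was again the highest pool and Mest-KO 1 the lowest, with control 3 next to it, and the log2 difference was -0.03 (SE 0.586). Foxd1, a forkhead factor gene of stromal cells, was at 40.8, 239 and 109 in Mest-KO and at 172, 129 and 50.8 in control (log2 difference -0.13, SE 0.696). It too was highest on Mest-KO 2 and lowest on Mest-KO 1. All 3 differences changed sign when 1 array was left out: Foxc2 was at -0.76 without Mest-KO 2 and at -0.42 without control 3. Foxc1 was at 0.49, 0.15 and 0.22, and Foxd1 at 0.42, 0.20 and 0.074, without Mest-KO 1, control 1 and control 2.

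Prrx1, a homeobox gene of limb and head mesenchyme, had intensities of 223, 986 and 556 in Mest-KO and 569, 262 and 171 in control. The 2 highest values were on Mest-KO 2 and control 1, and the log2 difference was 0.74 (SE 0.641, limma adjusted p = 0.909). Its confidence interval ran from -0.81 to 2.29. The difference was 0.24 without Mest-KO 2, 0.33 without control 3, 1.31 without Mest-KO 1 and 1.19 without control 1. Prrx2, its paralog, was at 145, 211 and 287 in Mest-KO and at 152, 143 and 146 in control. Here the control pools were nearly alike and Mest-KO 1 lay among them, so the difference of 0.44 (SE 0.220) rested on the other Mest-KO pools.

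Twist1, a helix-loop-helix factor gene that keeps cells mesenchymal, was at 228, 720 and 353 in Mest-KO and at 476, 348 and 149.6 in control. Twist2, its close relative, was at 61.9, 185 and 89.5 in Mest-KO and at 142, 75.2 and 44.9 in control. Both genes put Mest-KO 2 first, control 1 second and control 3 last. Their log2 differences were 0.38 (SE 0.559) and 0.20 (SE 0.535), and both changed sign when Mest-KO 2 was left out, to -0.073 and -0.28, or control 3, to -0.10 and -0.22.

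Pou3f4, a POU-domain factor gene of the otic mesenchyme whose loss causes deafness, had intensities of 13.6, 132 and 111 in Mest-KO and of 79.4, 81.2 and 64.0 in control. The value of Mest-KO 1 lay under the filter intensity, so no fold is given against it, while the 3 control pools lay within 1.27-fold of each other. The log2 difference was -0.43 (SE 0.763), and without Mest-KO 1 it was 0.49. Its second probe set, below the filter, also had its highest value on Mest-KO 2, at 44.5, and from 1.26 to 20.6 on the other arrays. Alx1, a homeobox gene of facial mesenchyme, did not share this pattern: it was at 36.3, 36.5 and 36.2 in Mest-KO and at 58.0, 35.5 and 33.7 in control. Its normalized log2 values in Mest-KO were less even, at 5.37, 5.29 and 4.51, and the log2 difference was -0.41 (SE 0.281). Alx4 stayed below the filter, from 9.01 to 31.7 over the arrays.

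**Figure D3:**
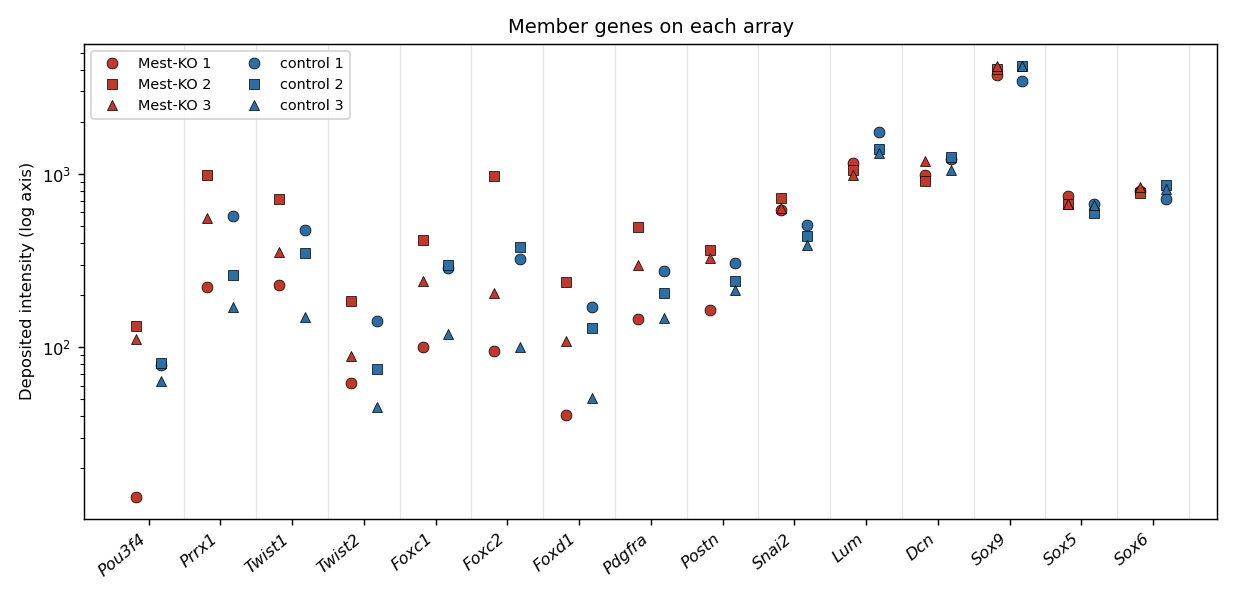
Deposited intensity (log axis) of 15 member genes on each of the 6 arrays, Mest-KO in red and control in blue, with circles, squares and triangles for replicates 1, 2 and 3. From Pou3f4 to Postn the Mest-KO pools spread widely, and for Prrx1 and the Twist and Fox genes the control pools too, while Sox9, Sox5 and Sox6 show tight groups. Snai2 and Lum are the genes whose groups do not overlap.

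For Prrx1 and Foxc1 the high pool was the same on each probe set that passed. Of 6 Prrx1 probe sets 4 passed the filter, and all 4 had their highest value on Mest-KO 2 and their lowest on control 3. Their log2 differences were 0.74, 0.80, 0.55 and 0.43. Both Foxc1 probe sets were highest on Mest-KO 2, with log2 differences of -0.03 and 0.31, but the first was lowest on Mest-KO 1 and the second on control 3. Pdgfra had a dimmer probe set below the filter that was highest on Mest-KO 3, at 77.9 against 39.0 on Mest-KO 2. Twist1, Twist2, Foxc2, Foxd1 and Postn had a single probe set each. Over the 40 member probe sets that passed, 21 were highest on Mest-KO 2 (52.5%, against 21.7% of all genes). In Mest-KO 25 of the 40 were higher (62.5%, against 49.1% of all genes) and 15 lower. These 2 shares were not counted over all probe sets. Of the 40, limma called 0, as it called 0 of all 27022 probe sets tested (0%). At an unadjusted p under 0.05 there were 3 member probe sets, against 3.98% of all, and for 4 of the 40 the groups did not overlap, against 9.37% of all. Just inside the filter lay a probe set of Sox6 with a geometric mean of 36.6, and just outside it a probe set of Prrx1 at 33.5.

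Regulators of somites, pharyngeal tissue and organ mesenchyme were mostly too dim to test, with 3 of 8 past the filter. Tcf15, a helix-loop-helix factor gene of paraxial mesoderm, was at 53.1, 82.6 and 99.1 in Mest-KO and at 48.7, 62.1 and 38.1 in control (log2 difference 0.50, SE 0.246). The groups overlapped at the lowest Mest-KO pool. Pax1, a gene of the sclerotome and pharyngeal pouches, was at 11.8 on Mest-KO 1 and between 38.4 and 63.7 on the others, and differed by -0.64 (SE 0.540), or by -0.0089 without Mest-KO 1. Pax9, its paralog, differed by -0.42 (SE 0.267) on its brightest probe set and by 0.10 on another that passed. Meox2, a homeobox gene of somites, stayed below the filter, but its probe sets read 63.8 and 69.6 on Mest-KO 2 and 9.12 and 8.76 on Mest-KO 1. Meox1 did the same, with 47.2 on Mest-KO 2, 12.2 on Mest-KO 1 and 1.42 on control 3. The remaining genes of this set, Osr1, Osr2 and Tcf21, did not exceed 23.0 on any array.

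Snai2, a zinc finger repressor gene of epithelial to mesenchymal transition, gave the smallest p among the members. Its intensities were 622, 731 and 637 in Mest-KO and 510, 439 and 390 in control, with every Mest-KO pool above every control pool. The log2 difference was 0.56 (SE 0.124), which did not pass over all genes (limma adjusted p = 0.659, and from 0.304 to 0.999 over 16 alternatives). Its second probe set, at 131, 160 and 189 in Mest-KO and 125, 124 and 83.8 in control in deposited intensity, gave 0.46 (SE 0.216), with groups that overlapped after normalization. Snai1, its paralog, pointed the other way without passing, at 36.6, 58.5 and 63.4 in Mest-KO and 67.1, 58.6 and 48.0 in control (-0.34, SE 0.191).

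Of the 7 receptor, surface and matrix genes of mesenchyme, 5 passed the filter, 3 higher and 2 lower in Mest-KO. Pdgfra, the receptor gene that marks early mesenchyme, was at 145, 496 and 298 in Mest-KO and at 275, 205 and 147 in control. It put Mest-KO 2 first and Mest-KO 1 and control 3 last, like the Fox and Twist genes, and differed by 0.42 (SE 0.458), or by -0.0077 without Mest-KO 2. Pdgfrb, the receptor gene of perivascular cells, was at 269, 347 and 273 in Mest-KO and at 195, 255 and 130 in control. Every deposited Mest-KO value lay above the controls, but the normalized groups overlapped, and the log2 difference of 0.61 (SE 0.273) did not pass (limma adjusted p = 0.909, and from 0.614 to 0.999 over 16 alternatives). It was 0.34 without control 3 and 0.90 over the pools that held both sexes. The second Pdgfrb probe set, at 200, 260 and 242 in Mest-KO and 213, 190 and 134 in control, also passed the filter. It gave a difference of 0.35 (SE 0.204), and there the deposited values overlapped as well. The ligand genes Pdgfa, Pdgfc and Pdgfd differed by -0.16, -0.04 and 0.11 with narrow groups, and the highest of their SDs was 0.120.

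Lum, which encodes the proteoglycan lumican, was the other member whose groups did not overlap. It stood at 1152, 1054 and 991 in Mest-KO and at 1736, 1402 and 1327 in control, each Mest-KO pool below each control pool. The log2 difference was -0.48 (SE 0.123), which did not pass (limma adjusted p = 0.777, and from 0.304 to 0.999 over 16 alternatives). Dcn, which encodes the related decorin, was at 980, 909 and 1192 in Mest-KO and at 1218, 1250 and 1050 in control and differed by -0.20 (SE 0.134). A second Dcn probe set that passed was less even, at 50.8, 122 and 150 in Mest-KO and 114, 77.6 and 137 in control. It differed by -0.21 (SE 0.365), was lowest on Mest-KO 1 and had a within-group SD of 0.54, against 0.18 on the brightest. On their brightest probe sets neither proteoglycan gene was high on Mest-KO 2. In contrast, Postn, a matrix protein gene of mesenchyme, read 165, 366 and 327 in Mest-KO and 305, 242 and 213 in control. Postn differed by 0.08 (SE 0.307), and by -0.14, -0.048 and -0.048 without Mest-KO 2, Mest-KO 3 and control 3. Thy1, a surface protein gene, stayed between 3.17 and 8.31.

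Sox5, Sox6 and Sox9, on their brightest probe sets, had the smallest within-group SDs of the members, at 0.075, 0.124 and 0.126. Bright genes vary less, and Sox9 lay above the median of its level class (0.086), while Sox5 and Sox6 lay below theirs (0.132). Of the 6 listed cartilage and bone factors 4 passed the filter, with 0 called. The brightest probe set of each of the 4 had a small positive difference. Sox9, which starts the cartilage program, was at 3726, 4059 and 4228 in Mest-KO and at 3422, 4178 and 4179 in control, with a difference of 0.07 (SE 0.109). Its 95% confidence interval ran from -0.19 to 0.33. A second probe set of Sox9 that passed was less even, at 1381, 827 and 488 in Mest-KO and 576, 766 and 507 in control, and gave 0.43 (SE 0.386). Its within-group SD was 0.57, against 0.13 on the brightest probe set. Sox5, a partner of Sox9, was at 747, 673 and 670 in Mest-KO and at 673, 599 and 666 in control (0.09, SE 0.087). Its other 4 probe sets that passed were lower in Mest-KO, with log2 differences of -0.23, -0.12, -0.073 and -0.46. Sox6, the other partner, was at 798, 776 and 843 in Mest-KO and at 714, 858 and 816 in control (0.01, SE 0.107). The other Sox6 probe sets that passed were also higher in Mest-KO, with log2 differences of 0.26, 0.27 and 0.63. The last of these, the dimmest, ran from 12.0 on control 1 to 81.4 on Mest-KO 3, with a within-group SD of 0.94. The first, at 693, 797 and 729 in Mest-KO and 591, 629 and 615 in control, had groups that did not overlap (SE 0.105, limma adjusted p = 0.969 over probe sets). The dimmest of the Sox5 probe sets that passed also had groups that did not overlap, in the other direction, at 61.3, 75.9 and 56.0 in Mest-KO and 78.0, 68.8 and 80.6 in control (-0.46, SE 0.264, limma adjusted p = 0.969). The signs of these small differences on the brightest probe sets turned under median centring, to -0.12 for Sox9, -0.041 for Sox5 and -0.13 for Sox6. Without control 1 Sox9 was at -0.013 and Sox6 at -0.077, and without Mest-KO 3 Sox6 was at -0.029.

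Later cartilage and bone products were dim. Sp7, a bone regulator gene, was at 100.4, 141 and 107 in Mest-KO and 83.1, 92.9 and 112 in control and differed by 0.13 (SE 0.204), or by -0.062 without Mest-KO 2. Matn1, a cartilage matrix gene, was at 65.3, 67.7 and 121 in Mest-KO and 161, 71.6 and 74.4 in control and differed by -0.33 (SE 0.318), or by 0.010 without control 1. The high pools of Matn1 were Mest-KO 3 and control 1, not Mest-KO 2. Acan, which encodes aggrecan, was below the filter at 14.7, 30.4 and 36.3 in Mest-KO and 58.3, 25.3 and 27.4 in control. Comp, Matn4 and Nkx3-2, all below the filter, had their highest values on Mest-KO 3, at 64.4, 40.3 and 17.4, where the dim probe sets in general read higher, and no change was read from them.

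Many other genes of mesenchyme were high on the same pool as the members. Of 30 listed 25 passed the filter, with 0 called. Of the 25, 18 were higher in Mest-KO (72%, against 49.1% of all genes) and 7 lower. The highest value was on Mest-KO 2 for 18 of the 25 (72%), against 21.7% of all genes. The lowest value was on Mest-KO 1 or control 3 for 15 of the 25 (60%), against 32.4%. Lhx8, Col6a1, Ogn, Vim and Loxl1 were highest on control 1 instead, and Ebf1 and Ebf2 were lowest there. Col1a1, which encodes a chain of the main fibrillar collagen, was at 199.7, 1052 and 593 in Mest-KO and at 757, 383 and 193 in control. Lhx8, a homeobox gene of the jaw mesenchyme, had the widest range within a group in this list, from 24.9 on control 3, a reading under the filter intensity, to 160 on control 1. At an unadjusted p under 0.05 were 2 of the 25, both lower in Mest-KO, against 2.91% of all genes. They were Vim, the intermediate filament gene of mesenchymal and many other embryonic cells, at -0.25 (SE 0.091), and Col6a1, a collagen chain gene, at -0.53 (SE 0.197). Of 18 other cartilage genes 13 passed, 5 higher and 8 lower, with 0 called. Their highest value was on Mest-KO 2 for 6 of the 13 (46.2%), against 21.7% of all genes. The lowest was on Mest-KO 1 or control 3 for 1 of them (7.69%), against 32.4%. Of the 13, 2 (15.4%) had an SD above the 90th percentile of their level class, against 14 of the 25 mesenchyme genes (56%). Col2a1, the main cartilage collagen gene, ran from 6345 to 7351 over all arrays. Col11a1 and Col11a2, chains of a minor cartilage collagen, had an unadjusted p under 0.05 (2 of 13, lower, against the same 2.91%) and differed by -0.23 (SE 0.092) and -0.40 (SE 0.121). Matn2, a matrilin gene, had the widest range within a group among these 13 genes, from 46.5 to 87.6 in Mest-KO.

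Levels of whole lists are given for the members and for other cell types. Means of log2 values cover the genes past the filter, and summed intensities cover every listed gene with a probe set, those below the filter included. The mean log2 level of the 9 head and periotic factors was 6.34, 8.17 and 7.19 in Mest-KO and 7.60, 7.36 and 6.43 in control. The 25 other mesenchyme genes gave 8.76, 9.51 and 9.11 in Mest-KO and 9.30, 9.03 and 8.66 in control, the same high and low pools. The 15 epithelial genes, in contrast, moved by 0.09 over all 6 arrays, from 11.77 on Mest-KO 2 to 11.86 on control 3. Their summed intensity ran from 71037 on Mest-KO 2 to 80869 on control 3. These genes were brighter than the mesenchymal ones, and bright genes vary less, so these ranges are not matched for level. Endothelial genes, of which 4 of 9 passed, gave 6.28, 6.94 and 6.69 in Mest-KO and 6.61, 6.54 and 5.76 in control. This mean was highest on Mest-KO 2 and lowest on control 3, but only 1 of the 4 genes was itself highest on Mest-KO 2. The summed intensity was 517, 734 and 758 in Mest-KO, highest on Mest-KO 3, and 485 to 588 in control. Their defining genes Cdh5, Pecam1 and Kdr were below the filter and under 64 on every array. Macrophage genes (4 of 7 passed) had their highest mean and sum on control 1, with summed intensities of 289 to 445 in Mest-KO and 267 to 693 in control, and Csf1r, Cx3cr1 and C1qa lay below the filter. Neural crest and glial genes (4 of 7) were also highest on control 1, with 12453 to 13487 and 13064 to 14580, and Foxd3 lay below the filter. Of muscle genes 2 of 7 passed, with sums from 124 to 307, highest on Mest-KO 3, and from 89.2 to 216, and Myod1, Myf5 and Myog were below the filter. Red blood cell genes (5 of 7) ran from 23836 to 27208 and from 24969 to 27844, and neuronal genes (7 of 7) from 7882 to 8483 and from 7567 to 8291. The part of these cell types in the members' values was not tested.

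**Figure D4:**
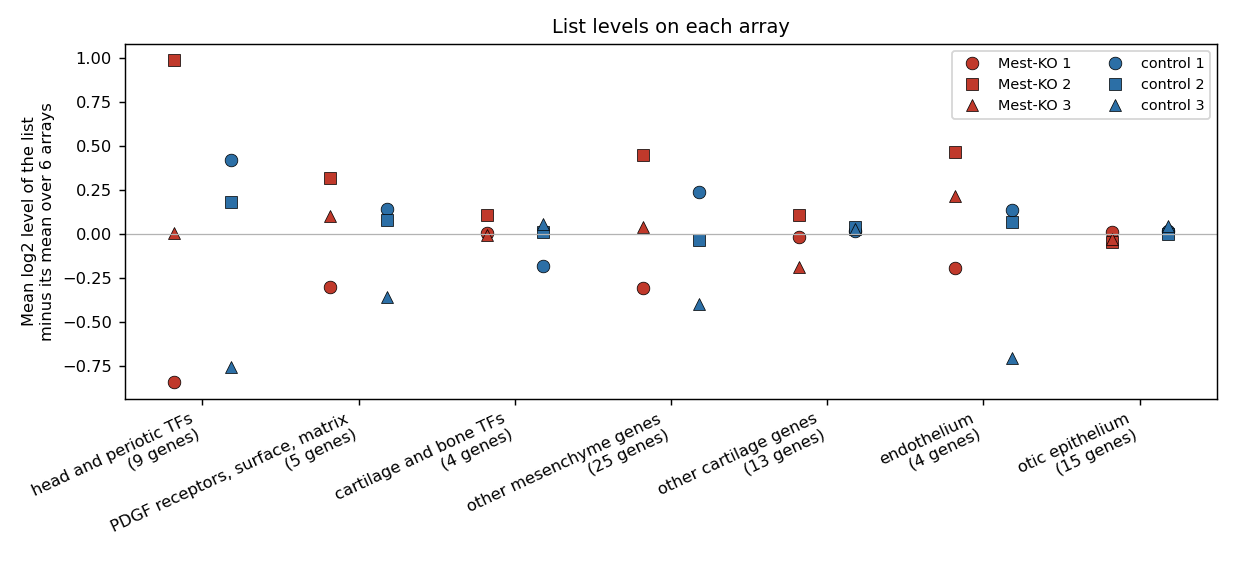
Mean log2 level of 7 gene lists on each array, minus the list's mean over the 6 arrays (vertical), with Mest-KO in red, control in blue and circles, squares and triangles for replicates 1, 2 and 3. Head and periotic factors spread over 1.83 log2 units and other mesenchyme genes over 0.85 with the same pools high and low, while the otic epithelium list spreads over 0.09. The lists were not matched for level.

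The sexes of the embryos also differed between pools. Xist, made from the inactive X of females, was at 16.1 on Mest-KO 1, and Eif2s3y, of the Y chromosome, at 12.1 on control 2, so that these pools held a single sex, while the other 4 held both. Of the pools with low mesenchymal genes, Mest-KO 1 held a single sex and control 3 both, and the part of sex was not tested. Over the 4 pools with both sexes the median log2 difference of the members was 0.44, and limma called 0 of the members. Foxc1, Foxd1 and Pou3f4 lay higher in Mest-KO over these pools, by 0.73, 0.61 and 0.60, none of them called. These 4 pools leave out Mest-KO 1. Without that array alone the median was 0.42, and the 3 genes were at 0.49, 0.42 and 0.49. Matching for sex and the loss of that array cannot be told apart here.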

How the data were processed

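RNA of 6 pools of embryonic otic vesicles, prepared from 300 ng of total RNA each per the labels' protocols, was measured on Affymetrix mouse arrays. The submitters' processing notes name Affymetrix Expression Console, version 1.1. The deposited values are linear intensities per probe set that share 1 trimmed mean over the arrays (2% trimmed from each end). How probes were summarised is not stated in the labels, and detection calls were not used. Of 45101 probe sets, 64 controls were left out. Of the others, 34945 had 1 symbol, 932 several and 9160 none here, and symbols were updated through RefSeq for 34741.

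Intensities under 1 were set to 1, and log2 values were quantile normalized. For a gene with several probe sets the one with the highest mean stood for it, and those under the 40th percentile were dropped. Mest-KO was set against control by limma 3.58.1 (R 4.3.3) over all 12462 genes, and over all 27022 probe sets, without covariates, at a Benjamini-Hochberg adjusted p under 0.05. Differences are Mest-KO minus control. Intensities in the text are as deposited, and differences, SDs and overlaps use normalized values. Intensities of different probe sets are not comparable as levels. The fit was tested on simulated data. Plots were made in Python 3.11.15 using matplotlib 3.10.9.

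Members, lists and the rule for named genes (all members, and in the other mesenchyme and cartilage lists those with an unadjusted p under 0.05 or the widest range, with Col1a1, Col2a1 and the Pdgf ligands added after their values were seen) were chosen with earlier results of these data known. The comparison with genes of like level and the count per array were added after seeing the data. Alternatives were other scalings, filters, probe set rules and floors, a variance trend, the replicate number as a block, each array left out, and pools with both sexes only. No pair of arrays had more than 1 exactly equal value.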

Additional observations from a re-analysis of the deposited data

Results flagged for a closer look

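Control probe sets for Bacillus spike-in RNA, 27 in number and used in no comparison of the member genes, had a median intensity of 14.4 on Mest-KO 3, above the control arrays, where the highest median was 5.62. The median over all probe sets below the filter was 18.5 on the same array, against at most 12.3 on the others. Member probe sets below the filter with their highest deposited value there included those of Comp, Matn4 and Nkx3-2 and the third probe set of Sox9 (92.7, against 8.56 to 23.0). The part of this signal in those values was not tested.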

How the results depend on the processing

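The count of members called was 0, in genes and in probe sets, under every alternative run, and the smallest adjusted p of any member was 0.304. The count over all genes, 0 as reported, was 25 with median centring (4 higher, 21 lower; each array was centred on its median over all probe sets but controls, and the count with another centring base was not tested), 7 with the filter at the 60th percentile, 1 with the most variable probe set and 13 with the trend. Over all probe sets it was 15, 9, 1 without a filter and 14, for centring, the 60th percentile, no filter and the trend. Median centring moved the median of all genes to -0.14, and with it 10 of the 24 members were higher and 14 lower, while 14 lay above the median of all genes under each scaling. Of the genes with an unadjusted p under 0.05, 56.6% were lower in Mest-KO as reported, 68.2% with centring and 38.7% with the deposited scaling. The median difference of the members lay between -0.16 and 0.42 when 1 array was dropped and was 0.44 over pools with both sexes. Their median SD lay between 0.337 and 0.466 when 1 array was dropped and was 0.644 without a filter, 0.347 with a gene's probe sets averaged, 0.477 with the most variable one, 0.333 with the replicate block and 0.346 over pools with both sexes. The count of 10 members with a wide spread for their level was 6 of 20 with the mean of probe sets, and 8 to 11 with an array left out. The count of 13 highest on Mest-KO 2 was 8 of 14 at the 60th percentile, and 13 or 14 with another array left out. Signs turned, besides those given above for pools with both sexes, in Foxc1 (0.14) and Sox5 (-0.13) with averaged probe sets and, with centring, in Postn (-0.040), Sox9 (-0.12), Sox5 (-0.041) and Sox6 (-0.13). Foxc1, Foxd1 and Pou3f4 were at 0.73, 0.61 and 0.60 with both sexes.

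With an array left out 12 members changed sign. The ranges were -1.01 to 0.49 for Pou3f4, -0.10 to 0.76 for Twist1, -0.28 to 0.58 for Twist2, -0.51 to 0.49 for Foxc1, -0.76 to 0.89 for Foxc2, -0.75 to 0.42 for Foxd1, -0.0077 to 0.86 for Pdgfra, -0.14 to 0.42 for Postn, -0.013 to 0.12 for Sox9, -0.077 to 0.075 for Sox6, -0.062 to 0.29 for Sp7 and -0.54 to 0.010 for Matn1. The cause of these differences was not tested. Pools with the same replicate number did not deviate together (correlations -0.04, -0.01 and 0.03), so the number is not a pairing, and the replicate block changed no call of a member.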
